A study of Mus musculus with 3 samples.

Results

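T and NK lymphocytes of the mouse prostate were picked out of 3 droplet single-cell libraries by the transcripts they carry. A kept barcode, meaning one that held 500 or more genes and no more than 15% mitochondrial transcripts, was taken as a lymphocyte when it held 2 or more unique molecular identifiers (UMIs, each standing for 1 captured transcript) of Cd3d, Cd3e, Cd3g, Trbc2 and Nkg7 together. It also had to hold fewer than 2 UMIs of the macrophage genes C1qa, C1qb and C1qc, and under 20% of its UMIs from the seminal vesicle secretion genes Svs1, Svs2, Svs3a, Svs3b, Svs4, Svs5 and Svs6. The rule found 316 cells among 25288 kept barcodes: 245 in the knockout library, and 13 and 58 in the heterozygote libraries. Those UMIs chose the cells, so they are given only as a description, and lymphocytes are set beside other cells without a test.

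T cells recognise peptides through a receptor made of variable chains and the invariant CD3 proteins, and CD8 T cells and NK cells kill target cells by releasing perforin and granzymes. NK cells lack CD3 and balance activating against inhibitory surface receptors. In epithelial organs many lymphocytes are long-term residents that do not recirculate, and in the prostate androgen loss is known to bring T cells into the gland.

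The study deposited 1 library from Srd5a2 knockout prostate and 2 from Srd5a2 heterozygous prostate, each of whole prostate from C57BL6 mice aged 12 to 15 weeks. Srd5a2 encodes the steroid 5-alpha-reductase that turns testosterone into dihydrotestosterone, so both kinds of tissue carried at least 1 mutant allele and no wild-type library was compared here. All tissues were digested for 2 h at 37 °C in a medium holding collagenase, DNase, a ROCK inhibitor and 1 nmol of dihydrotestosterone. They were also treated with the enzyme TrypLE for 10 min and with a red-cell lysis buffer. The sources used here do not state the number of animals per library or the deleted part of the gene. Over kept barcodes Srd5a2 had 16 UMIs, or 0.128 per 1000000 UMIs (CPM), in the knockout library, against 144 (3.09 CPM) and 178 (1.86 CPM) in heterozygotes 1 and 2, and lymphocytes held no Srd5a2 UMI in any library. Kept barcodes held 125173434 UMIs in the knockout library, against 46653168 and 95658933 in the heterozygotes.

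Lymphocytes were a larger share of the knockout library than of either heterozygote library. They made up 2.45% of kept barcodes in the knockout (245 of 9983, exact Clopper-Pearson 95% interval 2.16 to 2.78%), against 0.276% in heterozygote 1 (13 of 4718, 0.147 to 0.471%) and 0.548% in heterozygote 2 (58 of 10587, 0.416 to 0.708%). The intervals, which cover counting error only, do not overlap between the genotypes. The gap between the knockout share and the mean of the heterozygotes was 2.04 percentage points. Macrophages, taken as kept barcodes with 2 or more C1q UMIs, fewer than 2 UMIs of the lymphocyte genes and the same limit on seminal vesicle genes, were 1.60% of knockout barcodes, against 0.805% and 1.11% in the heterozygotes. There were thus 1.53 lymphocytes per macrophage in the knockout library, against 0.342 and 0.496. With 1 library against 2, an exact permutation test cannot go below 0.33, so the excess has no replicate check, and a rise in lymphocytes and a loss of other cells cannot be told apart in a share. Asking for 2 UMIs of the Cd3 genes alone narrowed the gap to 1.28 points. The share in heterozygote 2 depended on depth. Among barcodes of at least 2466 UMIs, the lowest depth in heterozygote 1, the shares were 2.43%, against 0.276% and 0.0655%. Heterozygote 2 then held 5 lymphocytes.

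**Figure D1:**
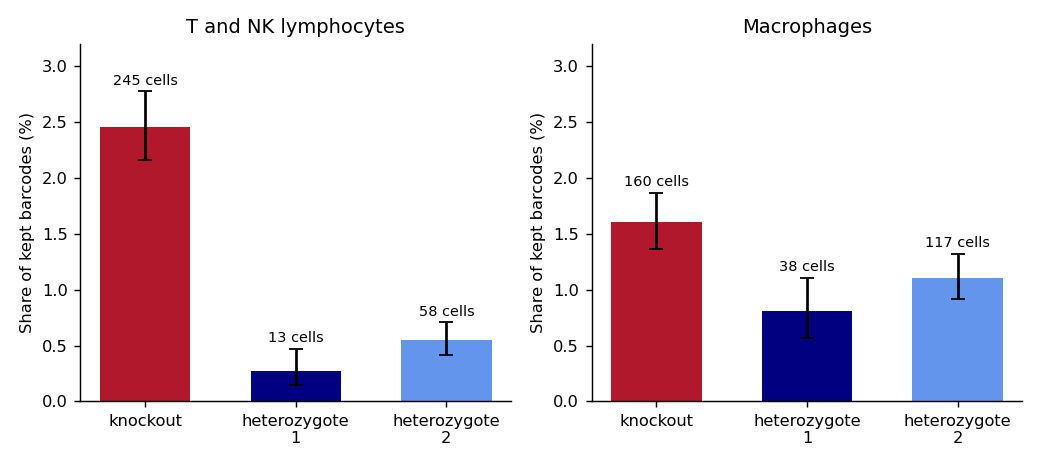
Share of kept barcodes (percent) that were T and NK lymphocytes (left) and macrophages (right) in the knockout and the 2 heterozygote libraries, 1 bar a library. Error lines are exact 95% intervals for counting error and cell numbers stand above the bars; 245 knockout lymphocytes stand beside 13 and 58.

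The cells carried leukocyte transcripts that the rule did not use. At least 1 UMI of Ptprc (the leukocyte surface phosphatase CD45), Coro1a, Laptm5 or Rac2 was seen in 98.4% of knockout members, and in 92.3% and 91.4% of heterozygote members. At the threshold itself, members with exactly 2 marker UMIs had one of these genes in 92.6% of 27 knockout cells, and in 50% of 2 and 100% of 7 heterozygote cells. Barcodes left out with 1 marker UMI had one in 26.8% of 56 knockout barcodes, and in 20% of 20 and 20.6% of 34 heterozygote barcodes. The defining macrophage genes Adgre1 and Lyz2 had no UMI in any member, and neither did any of the 4 neutrophil genes listed. Of 8 macrophage markers, 5 were at 0, 3 of them fixed by the rule, and the list summed to 10.6 CPM in knockout members and to 27.0 CPM in those of each heterozygote. The label of T and NK lymphocytes thus matched the markers.

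RNA of other prostate cells was also present in these barcodes. The 7 epithelial markers summed to 2168 CPM in knockout lymphocytes, against 4989 and 2071 CPM in those of heterozygotes 1 and 2, and 75 of 245 knockout members held 3 or more UMIs of the keratin and Epcam genes, against 10 of 13 and 14 of 58. Members had a median of 2976 UMIs in the knockout, against 3686 and 1592. A few barcodes were far deeper: 10 knockout members and 3 and 1 heterozygote members had over 10000 UMIs and held 21.8% of all member UMIs in the knockout, against 53.2% and 11.3% in the heterozygotes. The deepest, a knockout barcode of 75928 UMIs, alone held 8.07% of the knockout total. Sums over heterozygote 1 therefore rest largely on 3 barcodes. No cell barcode of a member recurred in another library.

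Genes of killing set these cells apart from macrophages in each library. Gzmb, the granzyme that cleaves caspases in target cells, had 1142 CPM in knockout lymphocytes, against 919 and 1063 CPM in those of heterozygotes 1 and 2. Gzma, a tryptase of the same granules, had 1307 CPM in knockout lymphocytes, against 324 and 2062 CPM. Macrophages held 1 UMI of the granzyme pair in all 3 libraries together, a Gzma UMI in the knockout. At an equal depth of 1000 UMIs per cell, 45.9% of knockout lymphocytes had a Gzmb UMI (39.5 to 52.4%), against 46.2% and 42.1% in the heterozygotes, and 0% of macrophages in every library (exact upper limits 2.28%, 9.25% and 3.13%). Without thinning the lymphocyte shares were 56.3%, against 61.5% and 44.8%. Prf1, the pore-forming perforin, had 112 CPM in knockout lymphocytes against 54.1 and 63.0 CPM, and Fasl, the ligand of the death receptor Fas, had 281 CPM against 81.1 and 135 CPM, both with no macrophage UMI. Of 14 genes listed for cytotoxic function, including Nkg7, which helped choose the cells, 11 were higher in lymphocytes than in macrophages in all 3 libraries. The exceptions were Gzmf, Gzmm and Srgn, the first with 1 UMI in all members and the last, the granule proteoglycan serglycin, a gene that macrophages carry too.

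Promoters are printed for genes that stood above macrophages together, and for the lymphocyte gene that differed by genotype. Of the former, Nkg7 helped choose the cells, so its place above macrophages was set in part by the rule. The windows run from 250 bases before to 50 bases after the RefSeq start (GRCm38.p6). Capitals mark 2 motifs that were searched on both strands after the gene lists were known: TGTGGT, the core that RUNX factors bind (ACCACA on the other strand), and AGGTGTGA, the T-box core (TCACACCT on the other strand), which did not overlap in any of them.
Gzmb, chr14:56262285-56262584, minus strand: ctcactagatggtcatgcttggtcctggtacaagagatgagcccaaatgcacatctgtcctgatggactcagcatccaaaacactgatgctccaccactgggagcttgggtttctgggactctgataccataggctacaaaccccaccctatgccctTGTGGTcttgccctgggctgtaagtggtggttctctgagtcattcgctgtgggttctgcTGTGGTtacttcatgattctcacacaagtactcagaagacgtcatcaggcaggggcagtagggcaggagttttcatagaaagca
Gzma, chr13:113100932-113101231, minus strand: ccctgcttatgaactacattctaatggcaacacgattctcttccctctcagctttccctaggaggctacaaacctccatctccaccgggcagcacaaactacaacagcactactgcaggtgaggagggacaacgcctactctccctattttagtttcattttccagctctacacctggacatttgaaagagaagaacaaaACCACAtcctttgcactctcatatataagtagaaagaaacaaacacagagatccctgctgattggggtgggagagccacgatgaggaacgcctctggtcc
Nkg7, chr7:43436888-43437187, plus strand: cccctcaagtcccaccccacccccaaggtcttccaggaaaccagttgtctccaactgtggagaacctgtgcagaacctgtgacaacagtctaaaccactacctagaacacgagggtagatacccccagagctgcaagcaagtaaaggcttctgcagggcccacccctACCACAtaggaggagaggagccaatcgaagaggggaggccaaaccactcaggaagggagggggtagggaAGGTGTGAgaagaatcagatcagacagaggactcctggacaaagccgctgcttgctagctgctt
Cd200r2, chr16:44866847-44867146, plus strand: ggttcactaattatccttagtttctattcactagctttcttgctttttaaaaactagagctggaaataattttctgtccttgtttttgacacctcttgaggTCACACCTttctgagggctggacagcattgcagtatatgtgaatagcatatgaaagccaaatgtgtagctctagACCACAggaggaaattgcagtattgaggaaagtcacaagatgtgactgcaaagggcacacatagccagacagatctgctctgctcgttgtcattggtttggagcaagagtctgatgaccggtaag
The Gzmb window holds 2 RUNX matches and the other windows 1 each. Nkg7 and Cd200r2, a gene taken up again with the genotype comparison, also hold 1 T-box match each. Of the 14 cytotoxic genes, 13 have a window in the table, 10 of which hold the RUNX letters and 1 the T-box letters. Of all 32851 windows, 16.8% hold the RUNX letters and 1.28% the T-box letters. Runx3, a RUNX factor of CD8 T cells and NK cells, had 303 CPM in knockout lymphocytes, against 122 and 180 CPM. Tbx21, which encodes the T-box factor T-bet, had 104 CPM in knockout lymphocytes, against 13.5 and 72.0 CPM, with no macrophage UMI.

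Beyond the killing genes, genes of interleukin-2 and T cell receptor signalling stood over macrophages. Ranked by the lowest ratio over the libraries, Gzmb, Il2rb, Ikzf3, Gzma, Xcl1 and Cd7 were among the first 7 outside the genes of the rule. Il2rb, the shared receptor chain for interleukin-2 and interleukin-15, had 973 CPM in knockout lymphocytes, against 392 and 810 CPM, and none in macrophages. Of the 16 genes listed for T cell receptor signalling, 13 were higher in lymphocytes than in macrophages in all libraries. The share over all genes is not given here for this list or the cytotoxic list. Lcp2, an adaptor that myeloid cells share, was higher in macrophages of the knockout and of heterozygote 1, and Lck and Lat, the receptor's first kinase and its adaptor, had no UMI in the 13 lymphocytes of heterozygote 1, where a count of 0 allows up to 40.6 CPM.

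Chemokine genes were divided between the classes. Xcl1, which attracts cross-presenting dendritic cells, had 453 CPM in knockout lymphocytes, against 297 and 252 CPM, with no macrophage UMI in any library. Ccl5, which attracts T cells and monocytes, had 5832 CPM in knockout lymphocytes, against 2487 and 6744 CPM, and was present in macrophages as well, at 830 CPM in the knockout and 2131 and 624 CPM in the heterozygotes. The reverse held for Ccl3, Ccl4 and Cxcl2, which were higher in macrophages in all libraries. Among receptors, Cxcr6, a homing receptor of tissue-resident T cells, had 375 CPM in knockout lymphocytes, against 122 and 297 CPM. Ccr6, Ccr8, Ccr10, Cxcr5 and Xcr1 had no UMI in any of the 316 members, which over all members allows up to 2.67 CPM.

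Genes listed for circulating and naive T cells were unequal in level. Ccr7, the chemokine receptor that takes T cells into lymph nodes, had 9 UMIs in all knockout members and none in the heterozygotes. S1pr1, the receptor by which T cells leave tissue, had 6.38 CPM in knockout lymphocytes against 27.0 and 90.0 CPM. Satb1, a chromatin organiser of T cells, was far more frequent, at 351 CPM in 125 of 245 knockout lymphocytes, against 270 and 486 CPM, and Il7r had 121 CPM against 94.6 and 342 CPM. Genes tied to residence were seen alongside: Itgae, the integrin chain CD103 that binds E-cadherin, had 61, 3 and 4 UMIs, Itga1 (CD49a) 119, 2 and 10 UMIs, and Rgs1, a brake on chemokine receptor signalling, 2166, 73 and 192 UMIs in the knockout and heterozygotes 1 and 2. Zfp683, which encodes the residence factor Hobit, had 1 UMI in all. Foxp3, the factor that defines regulatory T cells, had no UMI in 316 members, which allows up to 0.949% of members with a UMI, although Ikzf2 and Ctla4, which regulatory cells also carry, had 527 and 84.0 CPM in knockout lymphocytes, against 230 and 27.0 CPM in heterozygote 1 and 333 and 189 CPM in heterozygote 2.

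Effector cytokine transcripts were few. Ifng had 44 UMIs in 12 knockout cells, against 0 and 3 UMIs in the heterozygotes, and Il4, Il17a and Il17f together had at most 2 UMIs per library. Il13, Il21, Il22 and Lta had no UMI in any member. Receptors for cytokines were seen far more: Ifngr1, a chain of the interferon-gamma receptor, had 1267 CPM in knockout lymphocytes against 473 and 1153 CPM, and Il12rb2, a chain of the interleukin-12 receptor, had 372 CPM against 81.1 and 288 CPM. Of the checkpoint genes, Pdcd1 (PD-1) had 146 CPM in knockout lymphocytes against 27.0 and 216 CPM, Tnfrsf9 (4-1BB) 679 CPM against 392 and 711 CPM, and Lag3 and Havcr2, markers of exhausted T cells, 3 and 4 UMIs in all knockout members.

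**Figure D2:**
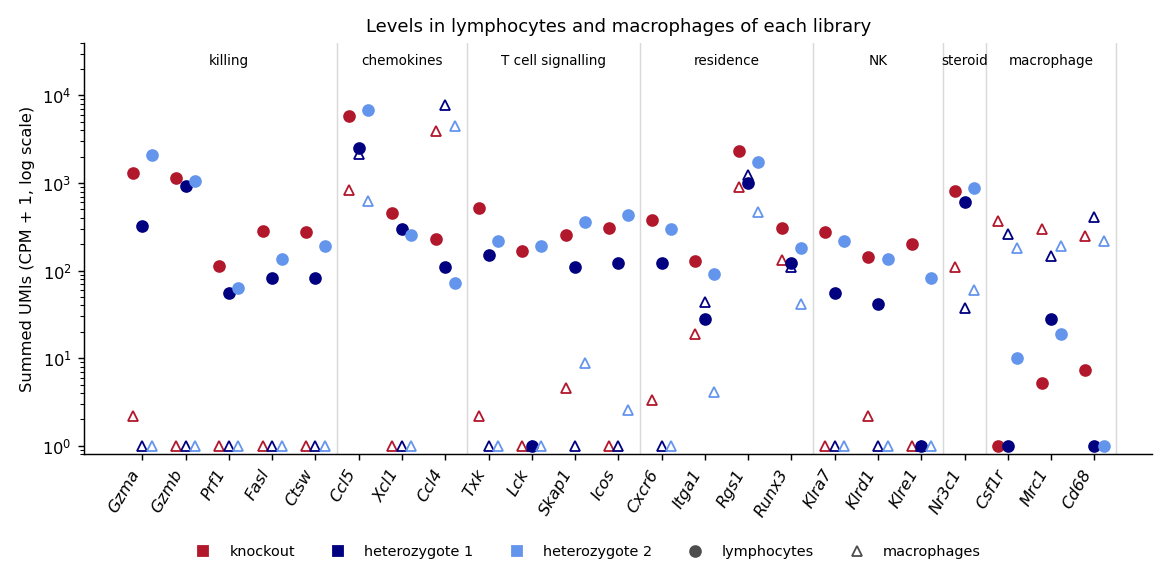
Summed UMIs as CPM plus 1 (log axis) of genes grouped by role, for lymphocytes (filled circles) and macrophages (open triangles) of the knockout and the 2 heterozygote libraries. Killing genes sit near 0 in macrophages of every library, while Ccl4 and the macrophage genes are higher in macrophages.

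Nr3c1, the glucocorticoid receptor, was higher in lymphocytes than in macrophages of each library. It had 817 CPM in knockout lymphocytes, against 608 and 882 CPM in those of heterozygotes 1 and 2. In macrophages it had 108 CPM in the knockout, against 36.2 and 59.6 CPM in the heterozygotes. The level in knockout lymphocytes lay between those of the heterozygotes, and the knockout minus heterozygote difference was 0.19 ± 0.64 (log2 ± standard error, 1 library against 2, edgeR adjusted p = 0.999). Esr1, which encodes estrogen receptor alpha, had 61 of 940535 UMIs in knockout lymphocytes, against 7 of 73970 and 0 of 111057. As a share of UMIs, Esr1 was thus lower in the knockout than in heterozygote 1. The digestion medium held dihydrotestosterone in every library, so levels were read after that exposure.

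Several T and NK types made up the group, and most cells could not be placed at an equal depth. Cells were thinned to 1000 UMIs, which left out 1 knockout and 1 heterozygote 2 lymphocyte. Cells with a Cd8a or Cd8b1 UMI and no Cd4 UMI were 9.43% of knockout lymphocytes (6.07 to 13.8%), against 0% of 13 (up to 24.7%) and 24.6% (14.1 to 37.8%) in heterozygotes 1 and 2. Cells with a gamma-delta receptor constant gene (Trdc, Trgc1, Trgc2 or Trgc4) and neither coreceptor were 13.9%, against 0% and 17.5%. Cells with Cd4 alone were 2.05%, against 0% and 7.02%. Cells with no Cd3 UMI and a UMI of Ncr1, Klrb1c or Klre1 were 13.5% of knockout lymphocytes (9.50 to 18.5%), against 0% of 13 and 3.51% (0.428 to 12.1%). The remaining 61.1% of knockout cells, against 100% and 47.4%, fell in none of these. The interval of the Cd8 share in the knockout lay just below that of heterozygote 2, but without thinning the shares were 20.8% (15.9 to 26.4%) and 27.6% (16.7 to 40.9%), which overlap. For the other 3 named subsets the thinned intervals overlapped between the knockout and both heterozygotes. Without thinning, cells with NK genes and no Cd3 UMI were 16.3% (11.93 to 21.6%) in the knockout. The interval in heterozygote 2 (0.420 to 11.91%) lay just below. Without members that held 3 or more epithelial UMIs, the knockout lower limit was 11.3%, above the heterozygote 2 upper limit of 8.22%. Heterozygote 1 overlapped the knockout in both settings, and under the other filters heterozygote 2 overlapped it too. In full, the 4 groups held 51, 54, 10 and 40 knockout cells by the order above, against 2, 2, 1 and 0 in heterozygote 1 and 16, 12, 4 and 2 in heterozygote 2.

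**Figure D3:**
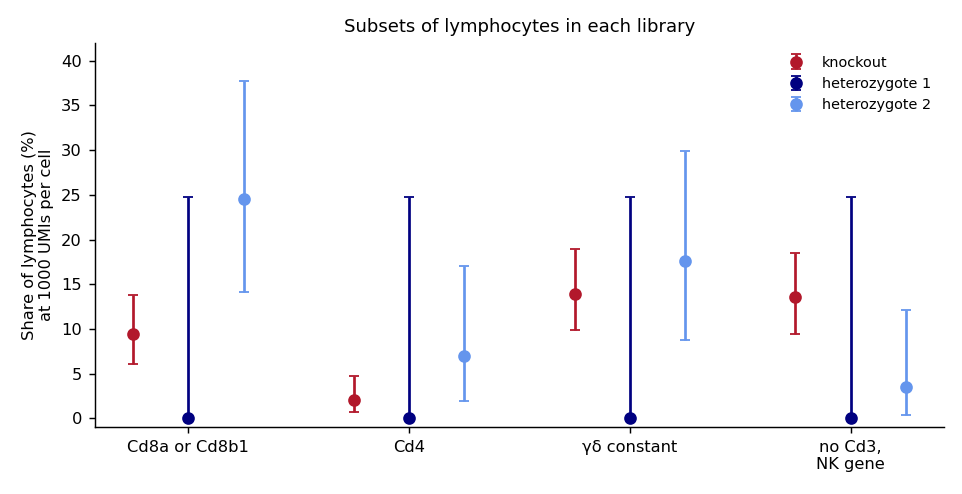
Share of lymphocytes (percent) in each subset after thinning every cell to 1000 UMIs, for the knockout and the 2 heterozygote libraries; lines are exact 95% intervals for counting error. The knockout point lies at 9.43% for Cd8 cells and 13.5% for cells with NK genes and no Cd3 UMI, with wide intervals for the 13 cells of heterozygote 1.

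The subsets differed in what they carried, as seen without thinning in the knockout, where cells were most numerous. Each was chosen by its own UMIs, and the values are described only. Cd8 cells had 862 CPM of Gzma and 1145 CPM of Gzmb, and gamma-delta constant cells had 1811 and 1994 CPM. The 10 cells with Cd4 had no Gzma UMI and 72.2 CPM of Gzmb, but 361 CPM of the costimulatory receptor Cd28, against 82.3 CPM in Cd8 cells. In heterozygote 2 the granzymes were divided differently. Gzma had 97 UMIs in 16 Cd8 cells (3830 CPM), 93 in 24 cells outside the named subsets and 38 in 2 cells with NK genes. Gzmb had 42, 58 and 13 UMIs in the same order. The 12 gamma-delta constant cells had 1 Gzma UMI and no Gzmb UMI. They had 754 CPM of Il7r, the interleukin-7 receptor, against 400 CPM in the knockout cells of that subset. Cells with NK genes and no Cd3 UMI had the highest Prf1 of the knockout subsets (259 CPM) and 198 CPM of Tbx21, together with 106 CPM of Eomes, the other T-box factor of NK cells. They also held 365 CPM of Trbc2 and 464 CPM of Trbc1, constant genes whose unrearranged transcripts NK cells can carry.

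Rearranged receptor genes gave a further, thin view. A gamma-chain variable gene was seen in 23 knockout lymphocytes, against 1 and 2 in the heterozygotes, and in the knockout Trgv2 was the one seen in most cells, 14. Among genes named as delta-chain variable only, every UMI came from Trdv4, in 19 knockout cells against 1 and 2. Trav15-1-dv6-1, Trav13-4-dv7 and Trav21-dv12, variable genes shared by alpha and delta chains, had 1 UMI each in the knockout and were not counted as delta. Beta-chain variable genes were seen in 6, 0 and 2 cells, so clonality could not be read. In the knockout 21 cells, and 1 and 4 in the heterozygotes, held both a Cd8 UMI and a gamma-delta constant UMI.

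Few genes differed between knockout and heterozygote lymphocytes, and most of those were higher in the other kept barcodes than in lymphocytes. UMIs were summed over the lymphocytes of each library and tested with edgeR's quasi-likelihood method, with Benjamini-Hochberg adjustment over 2775 genes and a threshold of 0.05. The test called 25 genes (0.901% of those tested), 16 higher (0.577%) and 9 lower (0.324%) in the knockout. Of the 25, 7 are seminal vesicle genes that the rule itself used, leaving 9 higher and 9 lower. In 17 of the 25, the level in lymphocytes of the higher genotype was below that in all other kept barcodes of that genotype. In 7, at least 50% of the UMIs in the higher genotype came from 1 barcode. Leaving out members over 10000 UMIs, an alternative chosen after seeing the data, gave 29 calls of 2687 genes (1.08%), 15 of them shared with the 25. With a spread shared with macrophages there were 15 calls, 7 without heterozygote 1 and 0 without heterozygote 2, where the lone heterozygote library is assumed to vary like the others and 518 genes had an unadjusted p under 0.05.

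**Figure D4:**
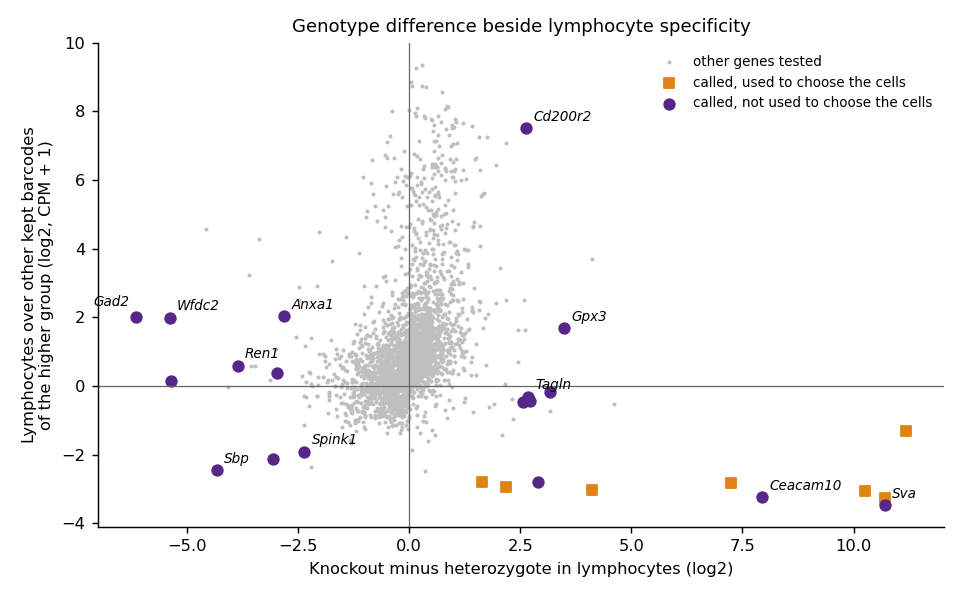
Each point is 1 of 2775 genes: knockout minus heterozygote in lymphocytes (log2, edgeR) on the horizontal axis, and the level in lymphocytes over that in other kept barcodes of the genotype where it is higher (log2 of CPM plus 1) on the vertical axis. Squares are called genes that chose the cells and filled circles the other called genes; Cd200r2 is the called gene far above 0 on the vertical axis. Genes with no heterozygote UMI, such as Sva, are drawn at a fitted value that is no bound.

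Cd200r2 was the one called gene carried mainly by lymphocytes and spread over many cells. It lies at chr16:44867097-44915840 (mm10, plus strand) and encodes a member of the CD200 receptor family, paired immune receptors of leukocytes. It had 208 UMIs in 76 of 245 knockout lymphocytes, against 2 UMIs in 1 of 13 and 5 UMIs in 4 of 58 heterozygote lymphocytes. In level this was 221 CPM (exact Poisson 95% interval 192 to 253), against 27.0 CPM (3.27 to 97.7) and 45.0 CPM (14.6 to 105). The knockout lay above both heterozygotes, and their intervals do not overlap it. These intervals take each UMI as independent and leave out the spread between cells and between libraries. No macrophage held a UMI, and other kept barcodes had 0.219 CPM in the knockout and 0.129 and 0.169 CPM in the heterozygotes. No knockout cell held more than 9 of its UMIs. The difference was 2.62 ± 0.74 on the log2 scale (edgeR adjusted p = 0.0482), and 2.42 ± 0.67 without members over 10000 UMIs (adjusted p = 0.0306). At 1000 UMIs per cell, 15.6% of knockout lymphocytes had a UMI (11.3 to 20.7%), against 7.69% (0.195 to 36.0%) and 3.51% (0.428 to 12.1%), with intervals that overlap. Within the knockout 104 of the 208 UMIs lay in the 90 cells that fell in none of the named subsets (321 CPM). It was also seen in Cd8 cells (216 CPM) and gamma-delta constant cells (229 CPM). Cells with NK genes and no Cd3 UMI had less (68.5 CPM), and the 10 Cd4 cells had no UMI. The call lies close to the threshold: Cd200r2 kept its direction in 15 of 15 alternatives and passed in 5, with adjusted p between 0.00776 and 1. Without members that held 3 or more epithelial UMIs the difference was 1.67 and the call was lost.

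Neighbouring family members did not pass. Cd200r4, an activating receptor of the same cluster, had 235 CPM in knockout lymphocytes, against 94.6 and 153 CPM (log2 0.96 ± 0.65, edgeR adjusted p = 0.999). Cd200r1, the inhibitory receptor for CD200, had 106 CPM against 67.6 and 81.0 CPM (log2 0.57 ± 0.76, adjusted p = 0.999). Cd200r3 had no UMI in lymphocytes. The genes of this family resemble each other in sequence, so reads shared between them may have been dropped or split in counting.

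**Figure D5:**
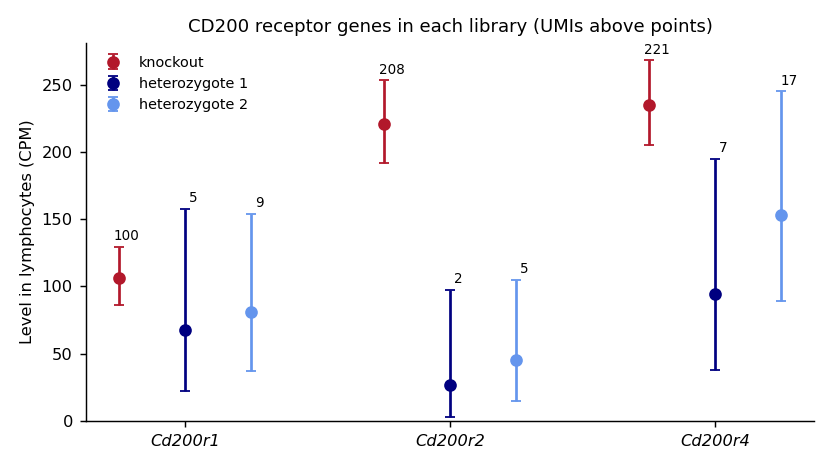
Level in lymphocytes (CPM) of 3 CD200 receptor genes in the knockout and the 2 heterozygote libraries, with exact Poisson 95% intervals for counting error and the number of UMIs above each point. Cd200r2 stands at 221 CPM in the knockout beside 27.0 and 45.0 CPM.

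The other genes with a call and a lymphocyte level at least 2 times that of other barcodes rested on single deep barcodes. Gpx3, a secreted glutathione peroxidase (chr11:54902453-54910377, plus strand), had 865 CPM in knockout lymphocytes, against 81.1 and 81.0 CPM, but 757 of its 814 knockout UMIs lay in 1 barcode, and without members over 10000 UMIs the difference turned to -0.80 ± 0.93 (edgeR adjusted p = 0.999). Gad2, a glutamate decarboxylase (chr2:22622205-22693874, plus strand), was called lower, with 2.13 CPM in knockout lymphocytes against 351 and 45.0 CPM, and 24 of the 26 UMIs of heterozygote 1 lay in 1 barcode. Wfdc2 and Anxa1 were called lower too, with 60 of 63 and 99 of 100 heterozygote 1 UMIs in 1 barcode. In heterozygote 2 Wfdc2 had no UMI, which allows up to 27.0 CPM, beside 8.51 CPM in the knockout, and Anxa1 had 86.1 CPM in the knockout against 18.0 CPM there. Without the deep barcodes Gad2, Wfdc2 and Anxa1 had too few UMIs to be tested.

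Genes of seminal vesicle, luminal and smooth muscle cells made up most of the rest, and those named here lay the same way in the other kept barcodes. Sva, a seminal vesicle secretion gene, had 552 CPM in knockout lymphocytes and no UMI in heterozygote lymphocytes, at least 34-fold higher over a floor of 3 UMIs for both heterozygotes together, while other kept barcodes had 6085 CPM in the knockout against 73.1 and 0.875 CPM. Ceacam10, another gene of that gland, had 1283 UMIs in 241 of 245 knockout lymphocytes against 1 and 0, and 12816 CPM in other knockout barcodes against 272 and 72.3 CPM. Sbp and Spink1, secretory genes of luminal cells, fell in knockout lymphocytes, Sbp to 201 CPM against 2109 and 6222 CPM, with 2226 CPM in other knockout barcodes against 35863 and 19580 CPM. Without members over 10000 UMIs the Spink1 call was lost (log2 -2.55 ± 0.98, edgeR adjusted p = 0.411). Seminal vesicle genes of the rule took 5.66% of lymphocyte UMIs in the knockout, against 0.339% and 1.70%, and 42.9% of UMIs in other kept barcodes, against 13.6% and 12.0%. The contractile genes Acta2, Tagln and Myh11 rose, Tagln to 641 CPM against 149 and 72.0 CPM, with 225 of 603 knockout UMIs in 1 barcode, and the 4 smooth muscle markers summed to 1402 CPM in knockout lymphocytes against 297 and 171 CPM. The call held in 9 of 15 alternatives for Tagln, 7 of 15 for Acta2 and 4 of 13 for Myh11, and for none of them with DESeq2, limma-voom, the shared spread or the droplet genes left out. The part of other cells' RNA in these calls was not tested.

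Over all members, the lists of lymphocyte genes held no called gene. The 27 lists of T cell, NK, cytokine, receptor and stimulation genes hold 291 genes beside those of the rule, 278 with a UMI in lymphocytes, of which 143 could be tested. With edgeR 0 were called and 12 (8.39%) had an unadjusted p under 0.05, beside 3.46% of all genes tested; DESeq2 and limma-voom called 0 as well. The median log2 difference of the 143 was 0.18, beside -0.03 over all genes tested. Over all 41 lists, the luminal secretory list (2 lower) and the smooth muscle list (3 higher) held calls outside the genes of the rule. On simulated counts of this size the test recovered 72.0% of genes changed 4-fold and 89.5% of genes changed 8-fold. It also made 13 and 11 false calls. The simulated spread was fixed and not estimated from these data, so recovery here may be lower, and smaller changes could be missed.

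Among barcodes of at least 2466 UMIs, the lowest depth in heterozygote 1, the result was different. This left 185 knockout lymphocytes, against 13 and 5 heterozygote lymphocytes, so the heterozygote values rest on few cells. One of the 5 in heterozygote 2 held 12587 UMIs, 94 of them of the keratin and Epcam genes. In heterozygote 1 the 3 barcodes over 10000 UMIs held 53.2% of member UMIs. EdgeR then called 74 of 1988 genes (3.72%), 48 higher (2.41%) and 26 lower (1.31%) in the knockout, and among 112 listed genes 15 were higher and 3 lower. Ccl5 had 5302 CPM in these knockout cells, against 2487 and 1081 CPM (log2 1.68 ± 0.37, edgeR adjusted p = 0.000506). Gzma had 1136 CPM against 324 and 432 CPM (log2 1.79 ± 0.47, edgeR adjusted p = 0.00718). Rgs1, Cxcr6, Tyrobp and Klra7 were also called higher, and Klre1 had 161 UMIs in the knockout and none in either heterozygote (adjusted p = 0.00554). Among the listed genes, those called lower were Stmn1, Ly6a and Jund. Ly6a had 59.8 CPM in these knockout cells against 608 and 36.0 CPM, so the heterozygotes lay on both sides of it. In all members Ccl5 and Gzma lay between the heterozygotes, with Gzma at 1307 CPM in the knockout and 2062 CPM in heterozygote 2. The part of the deep barcodes in the calls at this depth was not tested.

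Several genes had a low unadjusted p over all members without passing. Klre1, a lectin-like NK receptor, had 202 CPM in 88 knockout cells, against 0 UMIs in the 13 cells of heterozygote 1 and 81.0 CPM in heterozygote 2 (log2 2.18 ± 0.73, edgeR adjusted p = 0.202). Tyrobp, the adaptor through which activating receptors signal, had 639 CPM against 149 and 261 CPM (log2 1.68 ± 0.67, adjusted p = 0.610). Of the 19 NK receptor genes listed, 6 were tested, with a median of 1.09, and none passed; Klre1 alone of them had an unadjusted p under 0.05. Ccr2, a receptor for monocyte chemokines, had 270 CPM in knockout lymphocytes, against 40.6 and 117 CPM, and did not pass.

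The tested cell cycle genes had a negative median, and none passed over all members. Stmn1, a microtubule regulator of dividing cells, had 47.8 CPM in knockout lymphocytes, against 176 and 243 CPM (log2 -2.07 ± 0.70, edgeR adjusted p = 0.211). It passed in 4 of 15 alternatives, among them the one without members over 10000 UMIs (log2 -2.30 ± 0.63, edgeR adjusted p = 0.0280), with adjusted p between 0.000918 and 1.00. Mki67 had 7 UMIs in 5 of 245 knockout cells, against 5 UMIs in 1 of 13 and 11 UMIs in 3 of 58 heterozygote cells, and was called lower when all genes with at least 20 UMIs were tested. The 6 cell cycle genes tested had a median of -1.42. Of interferon-stimulated genes, 4 of 24 could be tested and none passed over all members; Ly6a had 55.3 CPM in the knockout against 608 and 36.0 CPM, so the heterozygotes lay on both sides of it.

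Lymphocytes and macrophages were then compared for their genotype difference. In macrophages edgeR called 46 of 7736 genes (0.595%), 15 higher (0.194%) and 31 lower (0.401%) in the knockout, among them Cxcl9, Areg, Ifit1 and Ly6a of the lists used here. With the shared spread 12 were called, 0 without heterozygote 1, where 286 genes had an unadjusted p under 0.05, and 18 without heterozygote 2. Cxcl9, an interferon-gamma-induced ligand of the chemokine receptor CXCR3, rose to 116 CPM against 6.04 and 14.1 CPM (98 UMIs against 1 and 9). Ifit1, an antiviral effector, fell to 28.3 CPM against 181 and 113 CPM. For Ly6a, 48 of the 55 macrophage UMIs in heterozygote 1 lay in 1 barcode. Some other macrophage calls also rested on 1 barcode. Slpi had 113 of its 114 heterozygote 2 UMIs in 1 barcode, and Wif1 all 106 of heterozygote 1. Cxcr3, the gene of the receptor for Cxcl9, had 15 of 940535 UMIs in knockout lymphocytes, against 0 of 73970 and 6 of 111057. As a share of UMIs, Cxcr3 was thus lower in the knockout than in heterozygote 2. A test of the class by genotype term, with the library as a block, called 4 of 8165 genes (0.0490%), all with a larger knockout difference in lymphocytes: Svs2, Svs5, Pate4 and Crisp1. Pate4, a seminal vesicle gene, had 2882 CPM in knockout lymphocytes against 338 and 1477 CPM, and in macrophages 1272 CPM against 1286 and 3377 CPM. Of the 2711 Pate4 UMIs in knockout lymphocytes, 1098 lay in 1 barcode. All 67 lymphocyte UMIs of Crisp1, a secretory gene of the epididymis, lay in the knockout and in 1 barcode. No gene of the lymphocyte lists passed this test, which could not be estimated for genes with no macrophage UMI, such as Cd200r2.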

How the data were processed

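The authors deposited UMI counts of each gene in each barcode, without normalization; the submitters' processing notes name Cell Ranger 3.1.0 and mm10. They cover 1 knockout and 2 heterozygote libraries (13273, 5000 and 13866 barcodes). How barcodes were called as cells is not given in the sources used here. From these counts, barcodes were filtered and classed as the opening describes, and UMIs were summed per library and class. Genes passing filterByExpr were fitted with edgeR 4.0.16 (TMM scaling, quasi-likelihood test, 1 residual degree of freedom) and adjusted over all genes tested. The method was tested on simulated data. DESeq2 1.42.0, limma 3.58.1 and other filters served as alternatives. CPM are UMIs scaled to 1000000 per class and library. No doublet caller was run; members with 3 or more epithelial UMIs were left out as an alternative. Genes named from the genotype test passed the threshold, had the same sign against both heterozygotes, were not used by the rule nor among 83 genes that each took 0.1% or more of UMIs in the shallow barcodes with fewer than 500 genes, and had 20 or more UMIs and a level at least 2 times that of other kept barcodes; Wfdc2, Anxa1 and genes of other cells were named after their values were seen, as were the motifs. Some listed genes are not reported here. Members and lists were chosen with earlier results of these data known. Positions are from GENCODE vM21 and promoters from RefSeq. P-values rest on the spread between 2 heterozygote libraries, with each gene's spread drawn toward that of all genes tested. Fits with a shared spread also use the macrophage sums. The separate animals of these libraries are not stated.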

Additional observations from a re-analysis of the deposited data

Results flagged for a closer look

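The knockout difference was larger in lymphocytes than in macrophages for 4 genes, by the test of the class by genotype term in edgeR. For Svs2 the gap between the log2 differences was 3.42, for Svs5 2.41 and for Pate4 2.92. These are seminal vesicle genes, the first 2 of them used to choose the cells. In knockout lymphocytes the top barcode held 2944 of 10636 Svs2 UMIs, 2443 of 23290 Svs5 UMIs and 1098 of 2711 Pate4 UMIs. Seminal vesicle genes of the rule took 5.66% of UMIs in knockout lymphocytes and 3.68% in knockout macrophages, against 0.339% and 1.21% in heterozygote 1 and 1.70% and 5.38% in heterozygote 2. For Crisp1 the fitted gap was 14.22, a value that depends on the prior count because heterozygote lymphocytes and knockout macrophages held no UMI, and its 67 UMIs lay in 1 knockout barcode.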

How the results depend on the processing

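No paired analysis was possible because the replicate numbers only name the libraries and 1 knockout library has no partner. The knockout excess in the lymphocyte share kept its direction in every alternative run and in 4 moved by less than the spread between heterozygotes. It was 1.78 points with at least 200 genes, 2.39 with at most 5% mitochondrial UMIs, 1.83 with at least 3 marker UMIs, 2.26 among barcodes of at least 2466 UMIs, 1.46 without possible epithelial doublets and 1.28 with 2 Cd3 UMIs, and 1.91 to 2.18 leaving out 1 heterozygote. The gap in cells with NK genes and no Cd3 UMI was 11.8 points, and 16.6 without possible epithelial doublets and 14.6 without thinning. The 25 genotype calls in lymphocytes became 1 with limma-voom, 6 without the 83 droplet genes (1 higher and 5 lower), 13 without possible epithelial doublets, 74 among barcodes of at least 2466 UMIs, 12 with DESeq2 and 15 with a spread shared with macrophages. In that shared fit 7 were left without heterozygote 1 and 0 without heterozygote 2, where 518 genes had an unadjusted p under 0.05. The 46 macrophage calls became 9 with at least 20 UMIs, 20 with limma-voom, 7 without droplet genes, 89 without barcodes over 10000 UMIs, 6 with DESeq2, 12 with the shared spread, and 0 (286 genes at an unadjusted p under 0.05) to 18 leaving out 1 heterozygote. The 4 calls of the class by genotype test became 7 with limma-voom, 1 without droplet genes, 7 with at most 5% mitochondrial UMIs and 1 among deeper barcodes. The count became 0 without possible epithelial doublets, where 66 of 4610 genes had an unadjusted p under 0.05. It was also 0 without the library block, where 154 of 8165 genes had an unadjusted p under 0.05. With median-ratio size factors 3 were higher and 1 lower. Direction turned for Gpx3 without barcodes over 10000 UMIs (-0.80). It also turned for Ccl5 (-0.16 and -0.10) and Nr3c1 (-0.023 and -0.0029) without possible epithelial doublets and without heterozygote 1, and for Gzma (-0.55) without heterozygote 1. Among barcodes of at least 2466 UMIs Ccl5 (1.68), Gzma (1.79), Klre1, Tyrobp (2.74) and Stmn1 (-2.69) passed. Cd200r2 lost its call in 10 of 15 alternatives, with differences from 1.67 to 3.58. The cause of these moves was not tested. Genes tested ranged from 1703 to 15927 in lymphocytes, 3233 to 16659 in macrophages and 4610 to 18444 in the class by genotype test. Counts of calls and of unadjusted p under 0.05 thus have unlike bases and cannot be compared directly. With 13 lymphocytes in heterozygote 1, shares and levels there are imprecise, and the spread between heterozygotes rests on 2 libraries.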
